A study of Mus musculus with 22 samples.

Results

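The genes of the SWI/SNF, ISWI and CHD chromatin remodellers were followed through mouse preimplantation development, in control embryos and in embryos depleted of the histone variant H2A.Z. The 10 genes were taken by symbol from a table of 55335 genes, and each symbol matched 1 gene. They were Smarca4, Smarca5, Smarcb1, Smarcc1, Smarcc2, Smarcd1, Smarce1, Arid1a, Chd1 and Chd4. Embryos came from B6D2F1 dams of 8 weeks mated with B6D2F1 males. For the KD, zygotes were injected at 20 to 22 h post hCG with about 10 pl of a 20 μM mix of 3 siRNA pairs against H2A.Z. Embryos were collected at 44 h (2-cell), 78 h (morula) and 94 h (blastocyst) post hCG. There were 4 control libraries at each stage, with 3 KD libraries of 2-cell embryos, 3 of morulae and 4 of blastocysts. How the control embryos of these libraries were treated is not given in the sources used here. Each of the 22 libraries pooled 15 whole embryos, so a change in cell composition and a change in RNA per cell cannot be told apart.

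Chromatin remodellers are ATP-driven machines that slide, evict or space nucleosomes. In SWI/SNF (BAF) complexes a catalytic ATPase, Smarca4 (BRG1) or its paralogue Smarca2 (BRM), is assembled with core and accessory subunits and with an ARID protein that distinguishes complex types. Smarca5 (SNF2H) is the ATPase of most ISWI complexes, which space nucleosomes, Chd1 binds methylated H3K4 at active genes, and Chd4 (Mi-2β) is the ATPase of the NuRD deacetylase complex. Maternal Smarca4 is known to be needed for genome activation in the mouse zygote.

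Expression was measured as FPKM, a count of fragments corrected for gene length and library size, so levels of different genes can be set side by side. The FPKM of a library summed to between 423915 and 722576, so values are relative to each library. Read depth is unknown from such values. Fold changes are on the log2 scale of scaled FPKM plus 1, which understates the change of low genes. They are given with the SE and the adjusted p of limma, taken over all genes tested, and a gene passed at an adjusted p under 0.05.

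The KD target gave the first check of the labels. FPKM of H2afz, the main H2A.Z gene, were 1244, 1236, 905 and 1178 in control 2-cell embryos and 415, 139 and 112 in KD ones. In morulae they were 1158, 1336, 1511 and 1421 in controls and 30.3, 25.7 and 29.0 after KD. In blastocysts the controls had 2656, 2431, 1945 and 2055 and the KD libraries 64.2, 67.2, 53.2 and 57.6. KD and control libraries were fully separated at each stage. The log2 fold change was -5.41 ± 0.17 in morulae (adjusted p = 9.72e-08) and -5.19 ± 0.20 in blastocysts (adjusted p = 3.63e-08). At the 2-cell stage it was -2.53 ± 0.38 and missed the threshold (adjusted p = 0.544), with KD replicate 1 the highest of the KD libraries. Without that library the adjusted p was 0.000909. H2afv, which encodes H2A.Z.2, did not pass in 2-cell embryos (-0.23 ± 0.16, adjusted p = 0.839), where the groups overlapped, and was lower in KD morulae (-2.94 ± 0.15, adjusted p = 2.92e-06) and KD blastocysts (-1.86 ± 0.22, adjusted p = 7.98e-05).

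The 10 remodeller genes spanned a wide range of levels. Smarca5 was the most abundant of them in every group, with group means from 28.8 to 74.8 FPKM. Smarcd1, a BAF60 subunit, and Smarcc2 (BAF170), a scaffold subunit, were the lowest. Their highest values in any library were 0.703 and 0.591 FPKM, so neither reached 1 FPKM in any of the 22 libraries and neither entered a test with the filter. The other 8 genes were tested in every comparison.

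**Figure D1:**
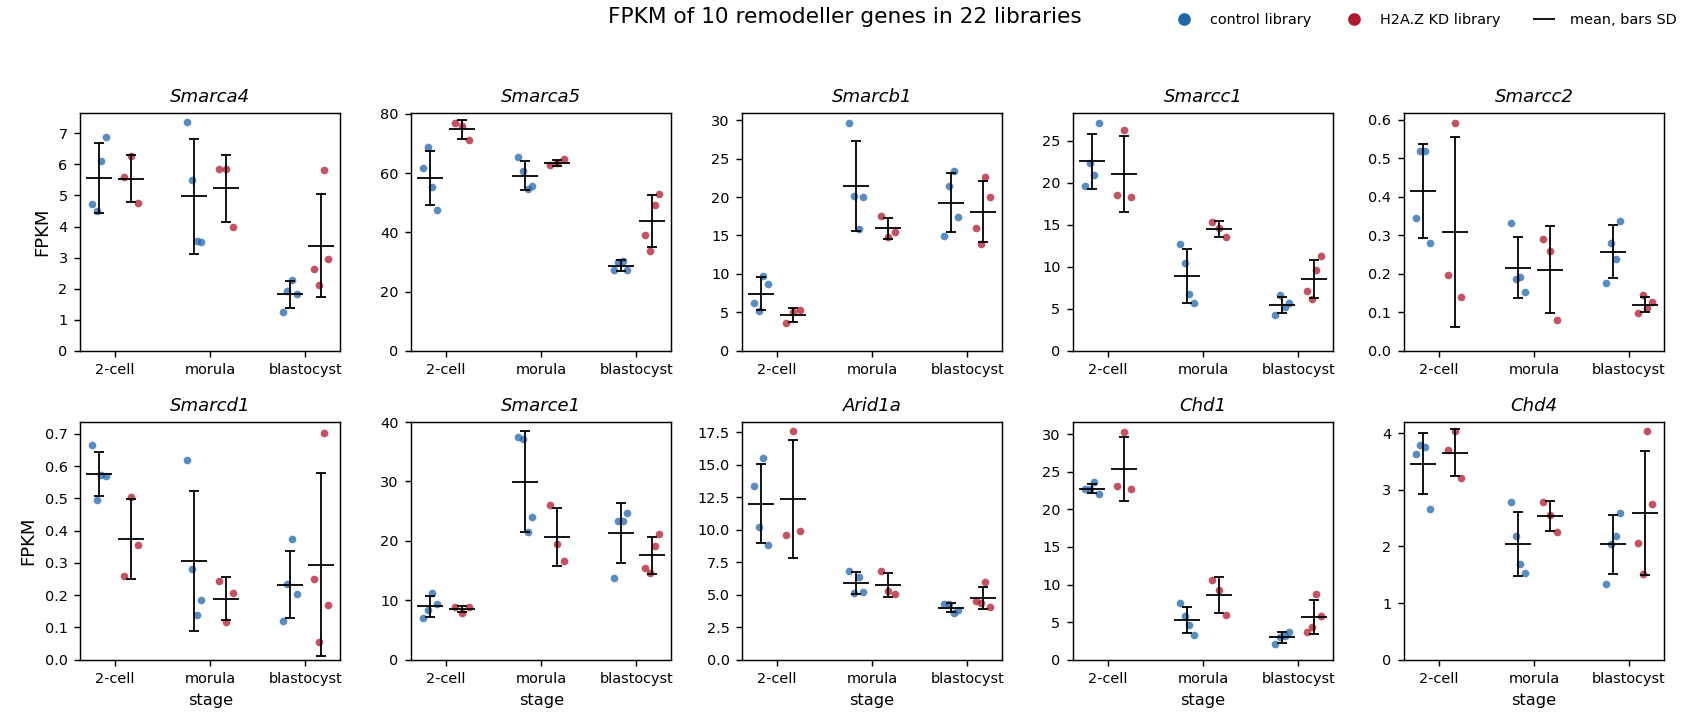
FPKM (vertical axes, from 0) of 10 remodeller genes in control (blue) and H2A.Z KD (red) libraries at 3 stages, with 1 point per library and black bars for the mean and SD. Smarca5 in KD blastocysts lies at 33.8 to 52.9, above the 27.3 to 30.5 of control blastocysts, while Smarcb1 and Smarce1 are lowest at the 2-cell stage.

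The normal course of these genes was examined first, in 1 fit over the 12 control libraries. From the 2-cell stage to the morula, a pair of core SWI/SNF subunits rose, and the 4 genes Smarcc1, Arid1a, Chd1 and Chd4 fell. That is 2 of 8 tested genes higher, where 40.6% of all 14686 tested genes were higher, and 4 lower, where 40.4% were. These shares are near or above those of the genes tested here, so change at this step was general. Oocyte markers were lower over the same steps. The summed FPKM of 6 oocyte markers were 778 to 1042 in control 2-cell embryos, 5.07 to 10.4 in control morulae and 1.98 to 2.88 in control blastocysts. Bmp15, Gdf9, H1foo and Zp2 stayed under 1 FPKM in every control morula and blastocyst library. They met the filter only through the 2-cell libraries, so their calls give no support. Zp3 had at least 1 FPKM in every control library. It was lower at both steps, where 40.4% and 21.7% of all tested genes were lower. The part of the oocyte markers in the result was not tested.

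Smarce1 (BAF57), a DNA-binding subunit of SWI/SNF, had 6.94, 8.31, 11.2 and 9.38 FPKM in control 2-cell embryos and 37.5, 37.1, 21.4 and 24.0 in control morulae. Every morula value lay above every 2-cell value, and the rise was 1.46 ± 0.19 (adjusted p = 3.83e-06). Smarcb1 (SNF5), the core subunit that contacts the nucleosome, had 6.20, 5.14, 9.78 and 8.66 FPKM in 2-cell controls and 29.6, 20.2, 15.9 and 20.0 in morulae. It rose by 1.26 ± 0.18 (adjusted p = 1.2e-05), again with no overlap. The share of all tested genes so separated between stages was not counted.

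Chd1 made the largest move of the 8 at this step. Its control 2-cell values were tightly grouped at 22.7, 22.8, 23.6 and 22.1 FPKM, and its control morula values were 7.49, 5.75, 4.65 and 3.34. It changed by -2.12 ± 0.17 (adjusted p = 2.45e-08). Smarcc1 (BAF155), the scaffold subunit paired with Smarcc2, had 19.6, 22.3, 21.0 and 27.1 FPKM in 2-cell controls and 12.7, 10.4, 6.74 and 5.71 in morulae, a change of -1.46 ± 0.19 (adjusted p = 4.25e-06). Arid1a, the large subunit that defines canonical BAF, changed by -1.05 ± 0.18 (adjusted p = 5.79e-05) and Chd4 by -0.69 ± 0.16 (adjusted p = 0.00114). Arid1a did not overlap between the stages, with 8.85 to 15.6 FPKM in 2-cell controls against 5.14 to 6.82 in morulae. Chd4 overlapped slightly, with 2.65 to 3.79 FPKM against 1.52 to 2.79.

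The ATPases Smarca4 and Smarca5 did not pass at this step. Smarca4 averaged 5.56 ± 1.14 (SD, n = 4) FPKM in 2-cell controls and 4.97 ± 1.84 (SD, n = 4) in morulae. Its log2 change was -0.32 ± 0.18 (adjusted p = 0.117). Smarca5 averaged 58.3 ± 9.0 (SD, n = 4) and 59.1 ± 4.9 (SD, n = 4) FPKM, with a log2 change of -0.14 ± 0.16 (adjusted p = 0.419). Smarca4 passed without control morula replicate 1 (-0.44), and Smarca5 passed when each library was scaled to the same FPKM total (-0.36). That scaling was chosen after seeing the data.

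From the control morula to the control blastocyst, 6 of the 8 genes were lower and 0 were higher, where 21.7% of all tested genes were lower and 24.4% higher. Both ATPases that had not passed at the earlier step fell here. Smarca5 dropped from 65.3, 60.6, 54.7 and 55.8 FPKM in morulae to 27.4, 30.1, 30.5 and 27.3 in blastocysts, a change of -1.02 ± 0.16 (adjusted p = 8.52e-05). Smarca4 went from 7.35, 5.50, 3.52 and 3.50 FPKM to 1.25, 1.91, 2.29 and 1.82, a change of -1.05 ± 0.18 (adjusted p = 0.00022). Blastocyst and morula values did not overlap for either gene, but how many of all tested genes were so separated was not counted. Chd1 changed by -0.65 ± 0.17 (adjusted p = 0.00638). These 3 calls held under all 19 alternatives.

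The other 3 were less firm. Smarcc1 changed by -0.58 ± 0.19 (adjusted p = 0.0213), Arid1a by -0.46 ± 0.18 (adjusted p = 0.0435) and Smarce1 by -0.48 ± 0.19 (adjusted p = 0.0491). Under the 19 alternatives, Smarcc1 passed in 15, Arid1a in 10 and Smarce1 in 7. Smarcc1 was lost without control morula replicate 1 (-0.45) or 2 (-0.49) or control blastocyst replicate 1 (-0.54) or 5 (-0.53). Arid1a was lost without control morula replicate 1, 7 or 8 or control blastocyst replicate 4, 5 or 6, at values from -0.48 to -0.39. It was also lost with the replicate number as a block (-0.32, adjusted p = 0.357), with a batch term for low and high replicate numbers (-0.43, adjusted p = 0.0608) and without the filter. Smarce1 was lost without control 2-cell replicate 2 or 5, control morula replicate 1 or 2, or control blastocyst replicate 1, 4 or 5, at values from -0.51 to -0.35. The batch term (-0.48, adjusted p = 0.0568), the other pseudocount, both other scalings and the fit without the filter ended it as well. The count of 6 was 3 without control morula replicate 1 or control blastocyst replicate 5. Smarcb1 (-0.14 ± 0.18, adjusted p = 0.576) and Chd4 (-0.01 ± 0.16, adjusted p = 0.985) did not pass.

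Control morula libraries differed by replicate number. Of the 8 tested genes, all but Arid1a were higher in both libraries numbered 1 and 2 than in those numbered 7 and 8, with Smarcb1 the closest. The labels give no batch, but the fall to the blastocyst was therefore also computed within each range of numbers, as log2 differences. In the low range (morulae 1 and 2, blastocyst 1) Smarca5 differed by -0.92, Smarca4 by -1.53, Chd1 by -1.12, Smarcc1 by -1.02, Smarce1 by -1.13 and Arid1a by -0.18. Among the higher numbers the differences were -1.04 for Smarca5, -0.69 for Smarca4, -0.32 for Chd1, -0.21 for Smarcc1, -0.07 for Smarce1 and -0.59 for Arid1a. Directions were the same in both ranges. For the earlier step, the directions of the 6 genes that passed also held in both ranges, while Smarca4 (0.10 in the low range and -0.74 in the high) and Smarca5 (-0.38 and 0.10) did not keep a direction.

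In 2-cell embryos, no remodeller gene passed between KD and control. With limma, 0 of the 8 genes passed, and 0 of 12160 genes did in all (0%). At an unadjusted p under 0.05 there were 2 of the 8 and 701 in all. Those 2 were Smarca5 and Smarcb1. Smarca5 had 61.6, 68.7, 55.5 and 47.5 FPKM in controls and 77.1, 75.8 and 71.3 after KD, without overlap, as for 2.65% of all tested genes in this direction, at a log2 difference of 0.43 ± 0.17 (adjusted p = 0.828). Smarcb1 had 3.67, 5.03 and 5.35 FPKM after KD, overlapping only the lowest control (5.14), at -0.49 ± 0.22 (adjusted p = 0.828). H2afz itself missed the threshold at this stage, so a change of moderate size in these genes could go uncalled.

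In morulae, Smarcc1 was higher after KD and no other remodeller gene passed. Its FPKM were 12.7, 10.4, 6.74 and 5.71 in controls and 15.4, 14.6 and 13.6 after KD. All 3 KD libraries were above all 4 controls, as for 6.70% of all tested genes, and the KD values were closer together. The log2 fold change was 0.83 ± 0.21 (adjusted p = 0.028). This was 1 of 8 genes higher, where 4.22% of 10989 tested genes were higher, and 0 lower, where 9.05% were. These shares depend on the fit. The 464 genes higher and 995 lower were 140 and 412 without KD replicate 2, and 777 and 1261 with the batch term. The Smarcc1 call was fragile. It passed under 5 of 14 alternatives, whose adjusted p ran from 0.0132 to 0.157, and it was lost on leaving out control replicate 7 (0.74) or 8 (0.69) or any 1 KD library (0.82 to 0.84). It was also lost with the replicate number as a block (0.51, adjusted p = 0.157), without the filter (adjusted p = 0.121), with FPKM as deposited (0.71, adjusted p = 0.0726) and with equal totals (adjusted p = 0.0934). Within the libraries numbered 1 and 2 the log2 difference was 0.51, and among the higher numbers, with a single KD library, it was 1.12.

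Chd1 stood just outside the threshold in morulae. It had 7.49, 5.75, 4.65 and 3.34 FPKM in controls and 10.6, 9.31 and 5.97 after KD. The KD library numbered 6 lay within the control range and the other KD libraries above it. The log2 difference was 0.73 ± 0.22 (adjusted p = 0.0533). It passed when control replicate 1 (0.83) or KD replicate 6 (0.92) was left out. It also passed with the batch term for low and high replicate numbers (0.64, adjusted p = 0.0173), the lowest adjusted p of its 14 alternatives, so this call depends on the model. The log2 difference was 0.68 within the libraries numbered 1 and 2 and 0.59 among the higher numbers. Smarce1 (-0.38 ± 0.21, adjusted p = 0.245), Smarcb1 (-0.26 ± 0.17, adjusted p = 0.341), Chd4 (0.32 ± 0.16, adjusted p = 0.204), Smarca5 (0.23 ± 0.13, adjusted p = 0.249), Smarca4 (0.20 ± 0.21) and Arid1a (0.08 ± 0.15) did not pass.

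In blastocysts, 4 remodeller genes were higher after KD. They were 3 of the 4 ATPase genes, Smarca5, Smarca4 and Chd1 but not Chd4, and the SWI/SNF scaffold Smarcc1. Each differed by between 0.56 and 0.71 on the log2 scale, so none reached a log2 fold change of 1. This was 4 of 8 genes higher, where 16.7% of 11828 tested genes were higher, and 0 lower, where 19.8% were.

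Smarca5 was the clearest. Its FPKM were 27.4, 30.1, 30.5 and 27.3 in controls and 39.1, 33.8, 49.4 and 52.9 after KD. The groups did not overlap, with KD replicate 4 the nearest to the controls, and 14.6% of all tested genes were as fully separated upward. The log2 fold change was 0.57 ± 0.16 (adjusted p = 0.0137), and the call held under 14 of 15 alternatives. The exception was the fit without KD replicate 6 (0.49, adjusted p = 0.0524, the highest of a range from 0.00944).

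Chd1 had 2.03, 3.06, 3.10 and 3.69 FPKM in controls and 3.67, 4.37, 8.77 and 5.75 after KD. The groups met at 1 pair of libraries, control replicate 6 and KD replicate 1. The log2 fold change was 0.71 ± 0.21 (adjusted p = 0.0192). It was lost without control replicate 1 (0.62) and without the filter on low values, and adjusted p over all alternatives ran from 0.0108 to 0.0622.

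Smarcc1 had 4.26, 6.58, 5.22 and 5.66 FPKM in controls and 7.17, 6.16, 9.62 and 11.2 after KD, with KD replicate 4 inside the control range. The log2 fold change was 0.56 ± 0.19 (adjusted p = 0.0356). Of its 15 alternatives 8 passed, and it was lost without control replicate 1, 5 or 6 or KD replicate 5 or 6, at values from 0.43 to 0.56. It was also lost without the filter (adjusted p = 0.0715) and with FPKM as deposited (adjusted p = 0.0624). Smarca4 had 1.25, 1.91, 2.29 and 1.82 FPKM in controls and 2.63, 2.11, 5.83 and 2.97 after KD. KD replicate 5 stood well above the rest, and KD replicate 4 lay inside the control range. The log2 fold change was 0.59 ± 0.21 (adjusted p = 0.0447), and it passed under 5 of 15 alternatives. Leaving out any 1 library other than KD replicate 4 ended this call, and without KD replicate 5 the value was 0.40. It was also lost without the filter (adjusted p = 0.124), with FPKM as deposited (adjusted p = 0.0833) and with equal totals (adjusted p = 0.0755).

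The count of 4 was 1 without control replicate 1 or without KD replicate 6, and 2 without control replicate 5, control replicate 6 or KD replicate 5. Smarce1 (-0.24 ± 0.18, adjusted p = 0.334), Smarcb1 (-0.08 ± 0.17, adjusted p = 0.75), Arid1a (0.19 ± 0.17, adjusted p = 0.396) and Chd4 (0.21 ± 0.20, adjusted p = 0.446) did not pass. Chd4 had its highest blastocyst value, 4.04 FPKM, in KD replicate 5, as did Arid1a at 6.00 and Smarcd1 at 0.703. Smarcc2, untested with the filter, went the other way. It had 0.175 to 0.336 FPKM in control blastocysts and 0.0976 to 0.144 after KD, without overlap. Of the genes tested with the filter, 19.95% were as fully separated downward. Smarcc2 did not pass in the fit without the filter (-0.16 ± 0.04, adjusted p = 0.0526).

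**Figure D2:**
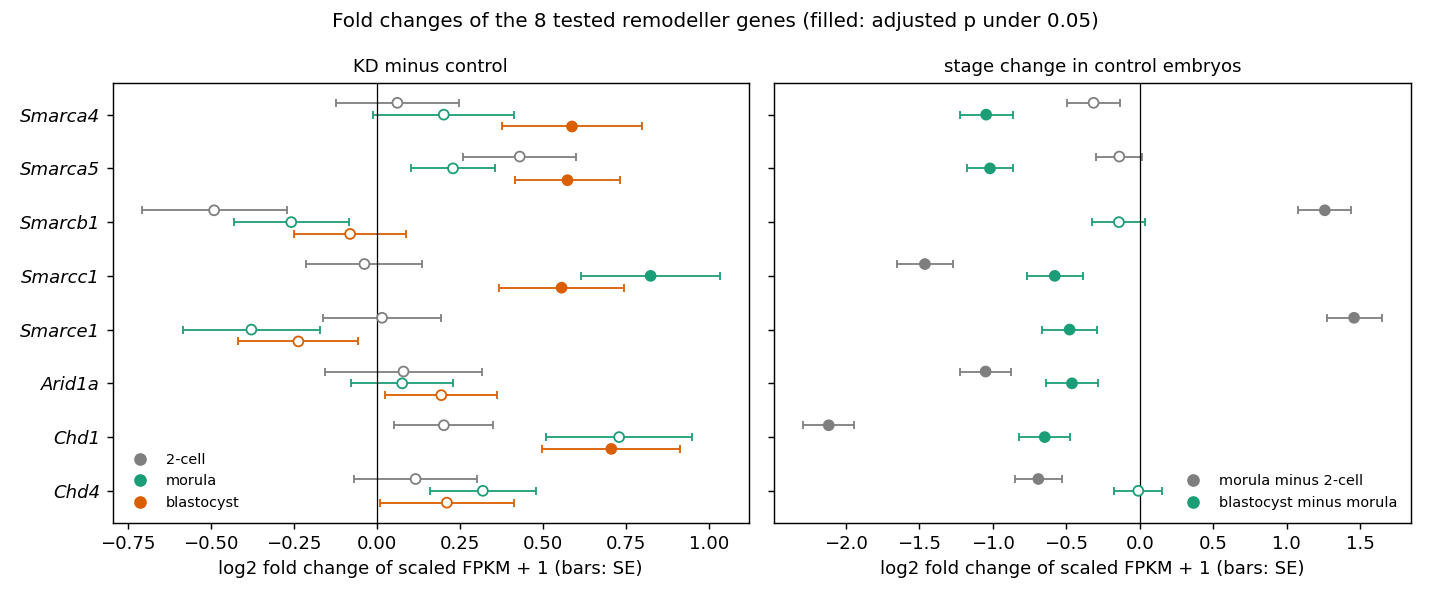
Log2 fold changes of scaled FPKM plus 1 (horizontal axes, bars SE) for the 8 tested remodeller genes, with KD minus control at 3 stages on the left and the stage changes of control embryos on the right. Filled points passed, among them the 4 higher in KD blastocysts at 0.56 to 0.71, all of which were lower in control blastocysts than in control morulae.

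The KD effect was compared between morulae and blastocysts as an interaction in 1 fit. With limma, 0 of the 8 genes passed, where 11.7% of 12727 tested genes did, and 0 of the 8 had an unadjusted p under 0.05. For Smarca4 the difference of the effects, blastocysts minus morulae, was 0.35 ± 0.31 (adjusted p = 0.5), for Smarca5 0.31 ± 0.19 (adjusted p = 0.314) and for Smarcc1 -0.31 ± 0.28 (adjusted p = 0.513). A larger effect in blastocysts than in morulae was therefore not shown for any of them.

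The order of the 6 groups by mean FPKM put KD blastocysts between control morulae and control blastocysts for Smarca5 (59.1, 43.8 and 28.8), Smarca4 (4.97, 3.39 and 1.82) and Smarcc1 (8.88, 8.55 and 5.43). For Chd1 the KD blastocyst mean of 5.64 lay next to the control morula mean of 5.31, with overlapping ranges. For Smarca5 the KD blastocysts overlapped neither control morulae nor control blastocysts, and for the other 3 genes they overlapped both. The control blastocysts enter both the KD comparison and the stage comparison, so the 2 sets of values are not independent.

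Lineage markers moved in the same libraries. The summed FPKM of 8 trophectoderm markers were 1099 to 1605 in control blastocysts and 737 to 930 in KD blastocysts, and 228 to 258 in control morulae. Krt18 was the most abundant in blastocysts, and 0 of the 8 were at 0 there in any library. Of these 8, Elf5 and Krt18 were lower and Tfap2c higher in KD blastocysts, where 19.8% of all tested genes were lower and 16.7% higher. Elf5 had 0.841 to 2.20 FPKM in controls and 0.030 to 0.186 after KD, so it met the filter only through the controls. The sum of 6 markers of the 2-cell embryo was 0.636 to 3.42 in control blastocysts and 4.63 to 29.3 after KD. Of these, 3 were tested, and Zfp352 and Tcstv3 were higher. Zfp352 had at most 0.772 FPKM in controls and 1.52 to 5.02 after KD. Tcstv3 had 0.248 to 1.69 FPKM in controls and 0.988 to 18.8 after KD. Both genes met the filter only through the KD libraries, so their calls give no support. The sum of 6 inner cell mass markers overlapped, at 135 to 247 and 151 to 283, and Gdf3 was lower. For 5 primitive endoderm markers the sums were 10.3 to 20.4 and 10.2 to 37.4, the last in KD replicate 5, with 1 gene tested and 0 passing. Gata6 made up most of these sums, with 10.6 FPKM on average in controls and 19.0 after KD. The mean of Gata4 was also higher after KD, and those of Pdgfra (1.72 and 0.59), Sox17 (0.60 and 0.28) and Sox7 were lower. In morulae the inner cell mass sum was 142 to 184 in controls and 49.9 to 68.2 after KD, with Gdf3 and Nanog lower and Klf2 higher. Of all tested genes in morulae, 9.05% were lower and 4.22% higher. The part of these differences in the remodeller values was not tested. The 6 cumulus cell markers summed to at most 0.126 FPKM in any library, and at least 4 of the 6 were at 0 in each.

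Relatives of the 10 genes were read from the same table, as each gene's share of the FPKM of its paralogue group. The SWI/SNF ATPase pair changed over almost completely between the 2-cell stage and the morula. Smarca2 had 44.9, 45.4, 42.7 and 37.4 FPKM in control 2-cell embryos and 0.267, 0.399, 0.288 and 0.307 in control morulae, a change of -5.17 ± 0.18. Smarca4 therefore made up 11.7% ± 3.0 (SD, n = 4) of the pair in 2-cell controls and 93.5% ± 2.0 (SD, n = 4) in control morulae, although its own change did not pass. KD libraries had 10.8% ± 2.4 (SD, n = 3) and 93.3% ± 2.7 (SD, n = 3). In blastocysts the share was 77.2% ± 11.5 (SD, n = 4) in controls and 83.1% ± 8.3 (SD, n = 4) after KD, at low FPKM of both genes. No p-value is given for Smarca2, because it met the filter only through the 2-cell libraries.

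Other groups were led by 1 gene throughout. Smarca5 held at least 99.9% of its FPKM with Smarca1, and Smarcc1 at least 94.4% with Smarcc2, in every library. Chd4 held at least 90.8% of the FPKM of Chd3, Chd4 and Chd5. Arid1a held at least 81.0% with Arid1b. Smarcd1 was a minor member of its group with Smarcd2 and Smarcd3, at 2.09% to 6.81% on average. Smarcd2 was the main one, with 17.0 FPKM in 2-cell controls and 3.59 in control blastocysts. Chd1 went from 96.7% ± 1.0 (SD, n = 4) of its FPKM with Chd2 in 2-cell controls to 69.6% ± 9.8 (SD, n = 4) in control blastocysts, and was at 78.9% ± 8.4 (SD, n = 4) in KD blastocysts. Shares are descriptions and were not tested.

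**Figure D3:**
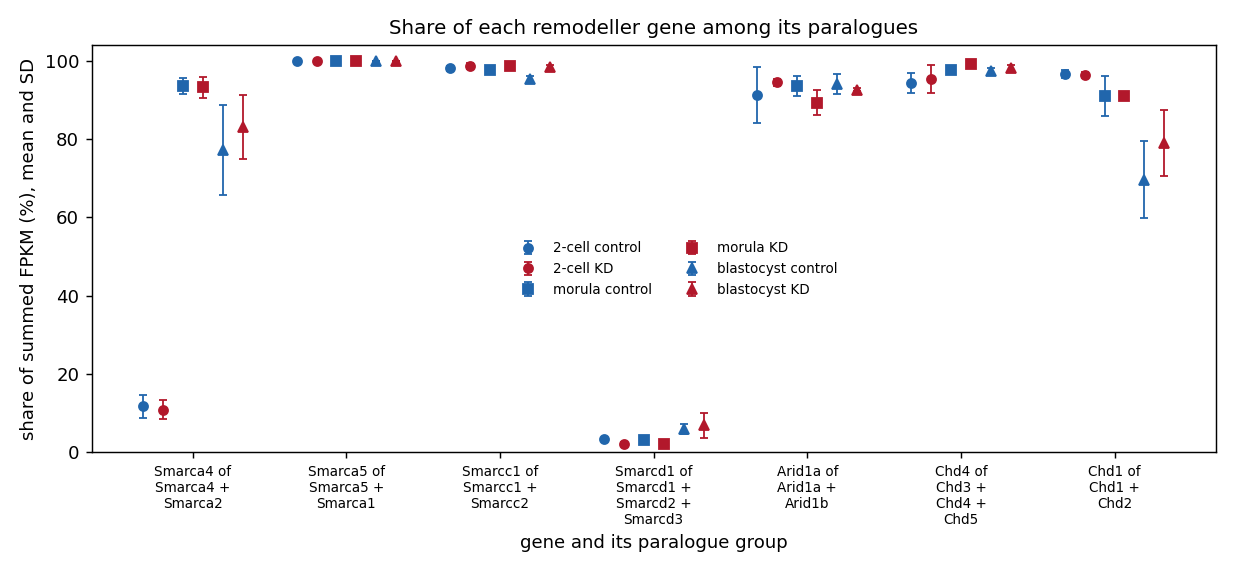
Share of a gene in the summed FPKM of its paralogue group (vertical axis, percent, mean and SD over libraries) in control (blue) and KD (red) 2-cell embryos (circles), morulae (squares) and blastocysts (triangles). Smarca4 goes from 11.7% of the pair with Smarca2 in 2-cell controls to 93.5% in control morulae.

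A wider list held 53 further subunits and relatives, all in the table, with 23 from SWI/SNF, 12 from ISWI and 18 from CHD and NuRD complexes. In 2-cell embryos, 0 of 39 tested passed with limma, and 3 had an unadjusted p under 0.05. In morulae, 1 of 35 was higher and 1 lower, where 4.22% of all tested genes were higher and 9.05% lower. Cecr2, a partner of ISWI ATPases, was higher in KD morulae (0.73 ± 0.18, adjusted p = 0.0231), and Brd9, of the non-canonical BAF complex, was lower (-0.74 ± 0.20, adjusted p = 0.0356). Neither passed when any 1 KD library was left out (0.68 to 0.80 for Cecr2 and -0.84 to -0.68 for Brd9). Control replicates 7 and 8 were also needed for both, and control replicate 2 for Brd9. Cecr2 was also lost with the replicate number as a block (0.52, adjusted p = 0.121) and with both other scalings, and both genes were lost without the filter.

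In blastocysts, 7 of 33 were higher and 0 lower after KD, where 16.7% of all tested genes were higher and 19.8% lower. The number higher was thus near the share over all genes. The median log2 fold change of the list was 0.28, against 0.0047 over all genes tested. Of the 12 ISWI genes 11 were tested and 3 were higher, with a median of 0.43. Of the 18 CHD and NuRD genes 11 were tested and 3 were higher, with a median of 0.43. Of the 23 SWI/SNF genes 11 were tested and 1 was higher, with a median of -0.11.

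The largest of these changes was Cdk2ap1, which encodes a small NuRD subunit. It had 76.2, 56.7, 82.0 and 58.8 FPKM in control blastocysts and 383, 359, 230 and 410 after KD. All 4 KD libraries lay far above the controls, at a log2 fold change of 2.31 ± 0.24 (adjusted p = 3.53e-05), and the call held under all 15 alternatives. Control morulae had 1193, 1121, 335 and 385 FPKM of Cdk2ap1, so the KD blastocysts were within the control morula range or below it.

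Cecr2 was higher in KD blastocysts as well. Its FPKM were 3.51, 4.53, 4.16 and 3.22 in controls and 7.08, 6.37, 11.6 and 9.30 after KD. The groups did not overlap, as for Cdk2ap1 and for 14.6% of all tested genes in this direction. The log2 fold change of Cecr2 was 0.96 ± 0.18 (adjusted p = 0.00164), and it passed under all 15 alternatives. Mta2, a NuRD scaffold, was higher by 1.06 ± 0.32 (adjusted p = 0.0204), Dpf2, a PHD finger subunit of BAF, by 0.96 ± 0.29 (adjusted p = 0.0219) and Gatad2a, of NuRD, by 0.73 ± 0.25 (adjusted p = 0.0392). All 3 calls were lost without KD replicate 5, where the values were 0.84, 0.83 and 0.53. Dpf2 was also lost without control replicate 1 (0.73) or 6 (0.89) or KD replicate 6 (0.90), and Gatad2a without control replicate 1, 4 or 6 or KD replicate 1 or 6 (0.66 to 0.80). All 3 were lost without the filter, and Gatad2a with both other scalings. Among the blastocyst libraries, KD replicate 5 had the highest FPKM of each, with 11.6 for Mta2, 24.1 for Dpf2 and 12.6 for Gatad2a.

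Over normal development more genes of the list were lower than higher. From control 2-cell embryos to control morulae 12 of 39 tested were higher and 21 lower, where 40.6% and 40.4% of all tested genes were, with a median of -0.65 against 0.028 over all genes. Among the lower were Smarca2, Bicral and Ss18l1, which met the filter only through the 2-cell libraries. Their calls give no support, and they enter the count and the median. From control morulae to control blastocysts 3 were higher and 16 lower, where 24.4% and 21.7% of all were, with a median of -0.46 against -0.001 over all genes.

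For each ATPase gene, the 3 genes most alike were taken by Pearson correlation of log2(FPKM + 1) over the 22 libraries, among 15689 genes. For Chd1 they were Ube2o (r = 0.986), Usp7 (r = 0.983) and Paf1 (r = 0.981). For Smarca4 they were Abcf1 (r = 0.967), Slc25a44 (r = 0.957) and Kti12 (r = 0.948), for Smarca5 Ugcg (r = 0.947), Eif5b (r = 0.931) and Zfp820 (r = 0.930), and for Chd4 Git1 (r = 0.955), Ccnk (r = 0.943) and Atxn2l (r = 0.927). The libraries fall into stages that share most of this variation, so these values describe a pattern over stages.

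Reads of some genes may be shared with others. Exons of Smarca5 overlap 281 bases of Gm45872 on the same strand, which reached 33.0 FPKM. Its processed copy Smarca5-ps had 12.2 FPKM on average in control 2-cell embryos, 1.46 in control morulae and 0.523 in control blastocysts. In KD blastocysts it had 1.02, with 0.637 to 1.38 against 0.449 to 0.641 in controls, and its part in the Smarca5 difference was not tested. Exons of Smarcc1 overlap 123 bases of Dhx30 on the opposite strand, and the library method does not mark strand. The copy Smarce1-ps1 averaged 3.30 FPKM in control morulae and 1.92 in KD morulae, and stayed at or under 3.82 in every library. How the authors' quantification divided such reads is not given in the sources used here.

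Promoter sequence was looked at because Smarca4, Smarca5, Smarcc1 and Chd1 were higher together in KD blastocysts. RefSeq promoters on GRCm38.p6 were matched for 8 of the 10 genes, with 10 promoters in all, and the 250 bases before each start were searched. No promoter of Chd1 or Smarce1 was used. The letters GGGCGG, on either strand and counting overlaps, were in 9 of the 10 promoters and in 32.7% of 32851 promoters of all genes. Of the genes higher in KD blastocysts, Smarca4, Smarca5 and Smarcc1 had a promoter here, each with GGGCGG. Those of Arid1a, Chd4, Smarcb1 and Smarcd1, none of them called higher, had it too, and that of Smarcc2 did not. The match was thus not particular to the genes that were higher. CGGAAG, on either strand, was in 2 of the 10, those of Smarca4 and Smarcc1, and in 13.6% of all. CCAAT was in 1 of the 10 and in 33.9% of all, and CACGTG in 0 of the 10 and in 6.02% of all. Arid1a and Chd4 had 2 promoters each, and those of Chd4 overlap, so the 10 are not independent. The median number of CG pairs was 24 in the 10 and 6 in all promoters. A match describes the letters only. The promoters of Smarca4 (chr9:21615919-21616168, plus strand), which fell to the blastocyst, and of Smarcb1 (chr10:75921615-75921864, minus strand), which rose to the morula, are shown 5′ to 3′ with GGGCGG and CGGAAG of either strand in capitals.
Smarca4: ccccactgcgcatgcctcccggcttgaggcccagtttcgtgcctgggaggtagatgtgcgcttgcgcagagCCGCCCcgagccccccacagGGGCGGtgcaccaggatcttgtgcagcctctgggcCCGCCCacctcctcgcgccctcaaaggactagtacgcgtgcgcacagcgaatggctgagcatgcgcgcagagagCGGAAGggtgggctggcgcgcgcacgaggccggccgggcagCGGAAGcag
Smarcb1: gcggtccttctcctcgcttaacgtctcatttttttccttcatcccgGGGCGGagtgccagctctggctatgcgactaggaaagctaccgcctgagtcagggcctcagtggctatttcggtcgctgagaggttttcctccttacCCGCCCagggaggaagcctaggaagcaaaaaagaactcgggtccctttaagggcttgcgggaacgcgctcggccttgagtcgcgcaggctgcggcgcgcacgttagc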

How the data were processed

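The 22 RNA-seq libraries were made by Smart-seq2 from poly(A) RNA of 15 embryos each, with 16 to 18 preamplification cycles and paired reads of 150 bases. Per the labels and the study's methods, the authors aligned reads to mm10 with STAR and quantified genes with StringTie 2.1.4, and the deposited values are FPKM. The annotation release is not given in the sources used here. Gene identifiers matched GENCODE vM21 with the same version for 54587 of 55335 genes. Groups and replicate numbers came from the sample titles, and 0 pairs of libraries were identical. The study's methods speak of repeated experiments without tying these libraries to separate collections of embryos, so p-values measure the spread between these libraries.

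FPKM were divided by median-of-ratios factors, from 0.853 to 1.17 over the fits. A gene was kept in a fit when 3 or more of its libraries had 1 FPKM or more, and log2 values were taken after adding 1. Groups were compared with limma 3.58.1 in R 4.3.3 (eBayes with a trend, two-sided, no covariates, Benjamini-Hochberg over all genes tested), after a test on simulated data. The KD comparisons used 1 stage each. Tables and figures were made with Python 3.11.15, numpy 2.4.6, pandas 2.3.3 and matplotlib 3.10.9. Depth could not be recovered, because at most 27.9% of low values of single-exon genes lay within 0.05 of whole steps. Alternatives were another pseudocount (0.1), no filter, other scalings, the replicate number as a block, its range as a batch, no trend, and leaving out each library.

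The 10 genes and the lists were chosen with earlier results of these data known. Genes named were the 10, H2afz, H2afv, up to 5 passing list genes with the largest change in each direction per KD comparison, and 3 like genes per ATPase. Smarca2, Smarcd2, Bicral, Ss18l1 and the passing markers were named after their values were seen.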

Additional observations from a re-analysis of the deposited data

Results flagged for a closer look

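In control blastocysts, Smarce1 had 13.7 FPKM in replicate 1, far below the 23.4, 23.4 and 24.7 of the other libraries. In control 2-cell embryos, Chd4 had 2.65 FPKM in replicate 5, below the 3.63 to 3.79 of the other libraries. Each value was set apart by a gap that took up most of its group's range. The remodeller genes, H2afz and H2afv were examined in 48 groups of 4 libraries, and chance alone sets apart about 1 in 20 groups. The KD effect on H2afv differed between stages by 1.04 on the log2 scale, blastocysts minus morulae (adjusted p = 0.0208 with limma), being smaller in blastocysts. All 4 KD blastocyst libraries and all 3 KD morula libraries were below their controls. Over 22 alternatives the adjusted p of the H2afv difference ran from 0.00188 to 0.0661, and 19 passed. It was lost with the replicate number as a block (0.96, adjusted p = 0.0636), without the filter (adjusted p = 0.0661) and without KD morula replicate 6 (0.99, adjusted p = 0.0503).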

How the results depend on the processing

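The number of remodeller genes that passed was 0 under every alternative for the KD effect in 2-cell embryos and for the difference of KD effects, and 6 or 7 of the 8 genes tested with the filter for the change from control 2-cell embryos to control morulae. Without the filter, Smarcd1 (-0.35, adjusted p = 0.0151) and Smarcc2 (-0.27, adjusted p = 0.0127) passed at that step too. In morulae, 1 passed, against 0 without the filter, 0 with FPKM as deposited, 0 with FPKM scaled to the same total, 0 with the replicate block, 2 with a batch term for low and high replicate numbers, and 0 to 2 on leaving out each library. In blastocysts, 4 passed, against 1 without the filter, 2 with FPKM as deposited, 3 with equal totals and 1 to 4 on leaving out each library. From control morulae to control blastocysts, 6 passed, against 4 or 5 under most other settings and 3 to 6 on leaving out each library. The filter changes how many genes are tested, and leaving out a library how many samples. The cause of the other changes was not tested. Scaling to the same total was chosen after seeing the data. It moved the median of all genes to -0.13 in morulae, -0.11 from 2-cell embryos to morulae and 0.24 for the difference of KD effects, and FPKM as deposited moved these to -0.085, 0.14 and 0.11. Of the genes called in morulae, 31.8% were higher, against 15.3% as deposited and 11.9% with equal totals. For the difference of effects these were 46.3%, 56.0% and 71.3%. Of 824 values of the 8 genes under alternatives, 42 changed sign, none of them a called value. Same-numbered control and KD libraries had correlations of deviations of 0.0147 to 0.214 in 2-cell embryos (3 pairs), 0.0943 to 0.181 in morulae (2 pairs) and -0.11 to 0.353 in blastocysts (4 pairs), so the numbers were not taken as pairs. Only pairs of a control and a KD library were compared. By range of numbers, every such pair of morula libraries from the same range was positive (0.0943 to 0.346) and every such pair across ranges negative (-0.278 to -0.0944). In 2-cell embryos 5 of 6 pairs were positive within ranges and 5 of 6 negative across, and blastocysts had no such split. Deviations were taken from each group's mean, so positive pairs must be balanced by negative ones, which are not separate support. A batch by range is thus possible in morulae and 2-cell embryos. With the batch term Chd1 passed in morulae. With the replicate block, Smarcc1 in morulae was at 0.51 (adjusted p = 0.157) and Cecr2 at 0.52 (adjusted p = 0.121), while 4 genes passed in blastocysts. Values of Smarcd1, Smarcc2, Chd4 and Smarca4 are low, and unknown depth limits what can be said of them.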
